A study of Mus musculus with 37 samples.

Results

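Values are given here for 10 genes of glutathione use and antioxidant defence in the mouse mammary gland: Gsta3, Gsta4, Gstm1, Gstt1, Nqo1, Hmox1, Gclc, Gclm, Cat and Gpx3. They were taken by symbol, through probe sets annotated with that symbol alone, out of 18820 genes on the arrays. Each of the 10 had 1 such probe set, and all 10 passed the filter on low values that left 13174 genes to test. Total RNA came from the intact inguinal mammary gland of female BALB/c mice (BALB/cJ in the growth protocol) whose inguinal gland on the other side had been cleared, in sham animals as in irradiated ones. Mice were exposed at 10 weeks of age to sham treatment, to 100 cGy of gamma rays (sparsely ionizing, low-LET) or to silicon ions (Si; densely ionizing, high-LET; 350 MeV/amu) at 30 or 10 cGy. Glands were taken 1, 4 and 12 weeks later, so the animals grew older between groups, up to 22 weeks. Week 1 glands were collected where the animals had been irradiated, and the later glands after the mice had travelled back, so age, time since exposure and place of collection cannot be told apart between week 1 and the later weeks. The 37 arrays, 1 per sample, formed 12 groups of 3, except sham at week 4 with 4.

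Glutathione is a small thiol that cells use against electrophiles and peroxides. Gclc and Gclm encode the catalytic and the modifier subunit of glutamate-cysteine ligase, the rate-limiting enzyme of its synthesis. Gsta3, Gsta4, Gstm1 and Gstt1 encode glutathione transferases, which join glutathione to reactive molecules; Gsta4 is known for its action on 4-hydroxynonenal, a product of lipid peroxidation. Gpx3 encodes a secreted glutathione peroxidase, and Cat encodes catalase, the peroxisomal enzyme that breaks down hydrogen peroxide. Nqo1 encodes a quinone reductase, and Hmox1 the inducible haem oxygenase. Many of these genes are known targets of NRF2, a transcription factor that KEAP1 holds back until oxidants or electrophiles release it and that binds antioxidant response elements in promoters. The mammary gland is a mixture of epithelium, adipocytes, stroma and immune cells, and each of these expresses a different set of such enzymes.

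The members lie on 7 chromosomes of GRCm38.p6. Gsta3 is at chr1:21240565-21265575, Cat at chr2:103453904-103485153, Gstm1 at chr3:108012250-108017973 and Gclm at chr3:122245487-122267215. Hmox1 is at chr8:75093618-75100593, Nqo1 at chr8:107388225-107403205, Gclc at chr9:77754535-77794489 and Gsta4 at chr9:78191966-78209349. Gstt1 is at chr10:75783813-75798584 and Gpx3 at chr11:54902854-54910387. The alpha and mu transferase families hold close paralogs, and how far a probe set reads only its own family member was not tested.

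RefSeq promoter windows of GRCm38.p6 were at hand for 7 members, in 8 windows, and the 250 bases before each transcription start were searched on both strands for the core of the antioxidant response element, TGACNNNGC. The core was found in the windows of 2 members, Gsta3 and Gclm, and in 10.2% of all 32851 promoters of the same length. An AP-1 element, TGANTCA, was found in 6.75% of promoters and in 0 of the 7 members. Stretches of the windows of Gsta3 and Gclm, 230 and 180 of the 250 bases, are printed because they hold the core, and because Gsta3 carries the largest response to silicon among the members. Capitals mark the match. In Gsta3 it lies on the strand of the gene, 121 to 113 bases before the start. In Gclm it lies on the opposite strand, 134 to 126 bases before the start. A match describes letters and does not show that a factor binds there. Both genes are on the plus strand, and each stretch ends just before the annotated gene begins (chr1:21240335-21240564 for Gsta3, chr3:122245307-122245486 for Gclm). The starts from which the matches were counted, at 21240585 and 122245557, lie further downstream, inside the annotated genes, so a match lies nearer to the end of its printed stretch than to its start of transcription.
Gsta3: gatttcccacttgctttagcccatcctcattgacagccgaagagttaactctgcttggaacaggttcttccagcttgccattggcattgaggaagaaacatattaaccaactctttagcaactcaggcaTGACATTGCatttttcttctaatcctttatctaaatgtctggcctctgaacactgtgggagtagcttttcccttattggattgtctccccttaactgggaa
Gclm: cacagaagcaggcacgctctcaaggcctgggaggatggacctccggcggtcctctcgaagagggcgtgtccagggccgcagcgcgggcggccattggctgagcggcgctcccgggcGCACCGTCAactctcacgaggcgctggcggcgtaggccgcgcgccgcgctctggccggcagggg

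All values below are on the log2 scale of the deposited data, on which a difference of 1 is a doubling. Over the tested genes, pairs of arrays correlated at 0.896 to 0.990 (median 0.967). In 2 sham arrays the median correlation to the others was lowest, at 0.932 in replicate 3 of week 1 and 0.946 in replicate 1 of week 4. A marker score is the mean deviation of a cell type's markers from their own means over the 37 arrays. In sham week 1 replicate 3 the lymphocyte score was 2.71 and the luminal epithelial score -0.86. In sham week 4 replicate 1 the brown adipocyte score was 1.09, the highest of the 37. Defining markers fitted mammary tissue: Krt8 and Krt18 of luminal epithelium and Adipoq and Plin1 of white fat averaged 10.8, 9.63, 11.4 and 11.1. Of the 11 brown adipocyte genes listed, 10 were on the arrays and 6 passed the filter; Ucp1, the uncoupling protein that defines brown fat, averaged 3.38, below the filter at 4.04. In bulk tissue, fewer cells of a type and less RNA per cell cannot be told apart. Replicates are separate samples by their labels, which give no further origin, so the p values reflect only how these samples spread, and that spread may be technical.

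Gsta3 was the only one of the 10 members to pass the limma test against sham in a single irradiated group, and it did so after 30 cGy Si at week 1. At that time the sham arrays read 8.0, 8.04 and 8.35, the arrays after 100 cGy gamma 8.24, 8.87 and 8.84, those after 10 cGy Si 8.88, 8.99 and 8.72, and those after 30 cGy Si 9.41, 9.33 and 9.07. All arrays of both silicon doses lay above all sham arrays, the arrays of 30 cGy Si lay above those of every other group of week 1, and the lowest gamma array fell among the sham arrays. The difference from sham was 1.14 ± 0.19 (SE, n = 3 against 3; 2.20-fold) after 30 cGy Si, with a limma adjusted p of 0.0215. It was 0.73 ± 0.19 after 10 cGy Si (adjusted p 0.238) and 0.52 ± 0.19 after gamma (adjusted p 0.493), values that did not pass. Over all irradiated arrays of week 1 together the difference was 0.80 ± 0.16 (n = 9 against 3; adjusted p 0.0470).

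These calls stood among very few. At 30 cGy Si and week 1, 1 of the 10 members was called against 0.0228% of the 13174 genes tested, which was 3 genes, all higher. For 10 cGy Si at week 1 the background was 0.0835%, for gamma 0.0228% and for all irradiated arrays 0.0759%. The call of Gsta3 at 30 cGy Si was as large without sham week 1 replicate 3, at 1.25 ± 0.22 (adjusted p 0.0223), and was lost without either of the other sham arrays (adjusted p 0.0860 and 0.108) or without 30 cGy Si replicate 1 or 2 (0.275 and 0.114). With 4 covariates, the array scores of lymphocyte, skeletal muscle, epithelial (luminal and basal) and brown adipocyte markers, the difference was 0.95 ± 0.19 and the call was lost (adjusted p 0.15). With white adipocyte and macrophage scores added, a setting chosen after the data had been seen, it was 0.86 ± 0.20 (adjusted p 0.963). The call was also lost when only the groups compared were fitted (1.14 ± 0.15, adjusted p 0.229). Without sham week 1 replicate 3 the difference for all irradiated arrays was 0.91 ± 0.18 and its call was lost as well (adjusted p 0.157). That call was kept in 2 of the 12 fits that left out 1 array, those without gamma replicate 1 or 30 cGy Si replicate 3, and adjusted p ranged from 0.0124 to 0.210.

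The sham arrays of week 1 were the lowest sham arrays for Gsta3. Sham read 8.63, 8.68, 8.85 and 8.44 at week 4 and 8.56, 8.44 and 9.06 at week 12. Sham was 0.52 ± 0.18 higher at week 4 than at week 1 (adjusted p 0.0875) and 0.55 ± 0.19 higher at week 12 (adjusted p 0.0958), and neither value passed, in comparisons that called 5.88% and 5.12% of all genes. The level after 30 cGy Si at week 1, a mean of 9.27, ranked highest of the 12 groups, and sham at week 1, a mean of 8.13, ranked lowest. Sham averaged 8.65 at week 4 and 8.68 at week 12.

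At week 4 the arrays of 30 cGy Si read 9.04, 8.98 and 9.00, above all 4 sham arrays, with a difference of 0.36 ± 0.18 (adjusted p 0.621). Those of 10 cGy Si read 8.73, 8.90 and 9.10, and those of gamma 8.60, 7.67 and 8.35, so gamma lay on the low side of sham at -0.45 ± 0.18 (adjusted p 0.798). The mean of gamma, 8.20, was next to the lowest of the 12 groups. At week 12 the arrays read 9.02, 8.64 and 9.15 after 30 cGy Si, 8.88, 8.83 and 8.82 after 10 cGy Si, and 9.02, 8.57 and 8.74 after gamma, and each group overlapped sham. Differences from sham at week 12 were 0.25, 0.16 and 0.09 in that order, each with an SE of 0.19.

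Averaged over the 3 weeks, Gsta3 was 0.58 ± 0.11 higher after 30 cGy Si than in sham (n = 9 against 10; adjusted p 0.0477), a call made for 0.0304% of genes. The difference was 0.38 ± 0.11 after 10 cGy Si (adjusted p 0.516) and 0.05 ± 0.11 after gamma (adjusted p 1.00). The call over 3 weeks was lost in 14 of the 19 fits that left out 1 array, where adjusted p ranged from 0.00540 to 0.140. With the 4 tissue covariates the difference was 0.59 ± 0.10 and the call was kept (limma adjusted p 0.0199). With the 6 covariates, chosen after the data had been seen, it was 0.56 ± 0.11 and the call was lost (limma adjusted p 0.0768). A limma test of all 9 radiation effects together called 0.0304% of genes and gave Gsta3 an adjusted p of 0.0993, which did not pass. The effect of 30 cGy Si on Gsta3 in the later weeks minus that at week 1 was -0.84 ± 0.24 (adjusted p 0.826), that of gamma -0.70 ± 0.24 (0.636) and that of 10 cGy Si -0.52 ± 0.24 (0.999), and none passed; 0 of all genes were called in these comparisons.

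**Figure D1:**
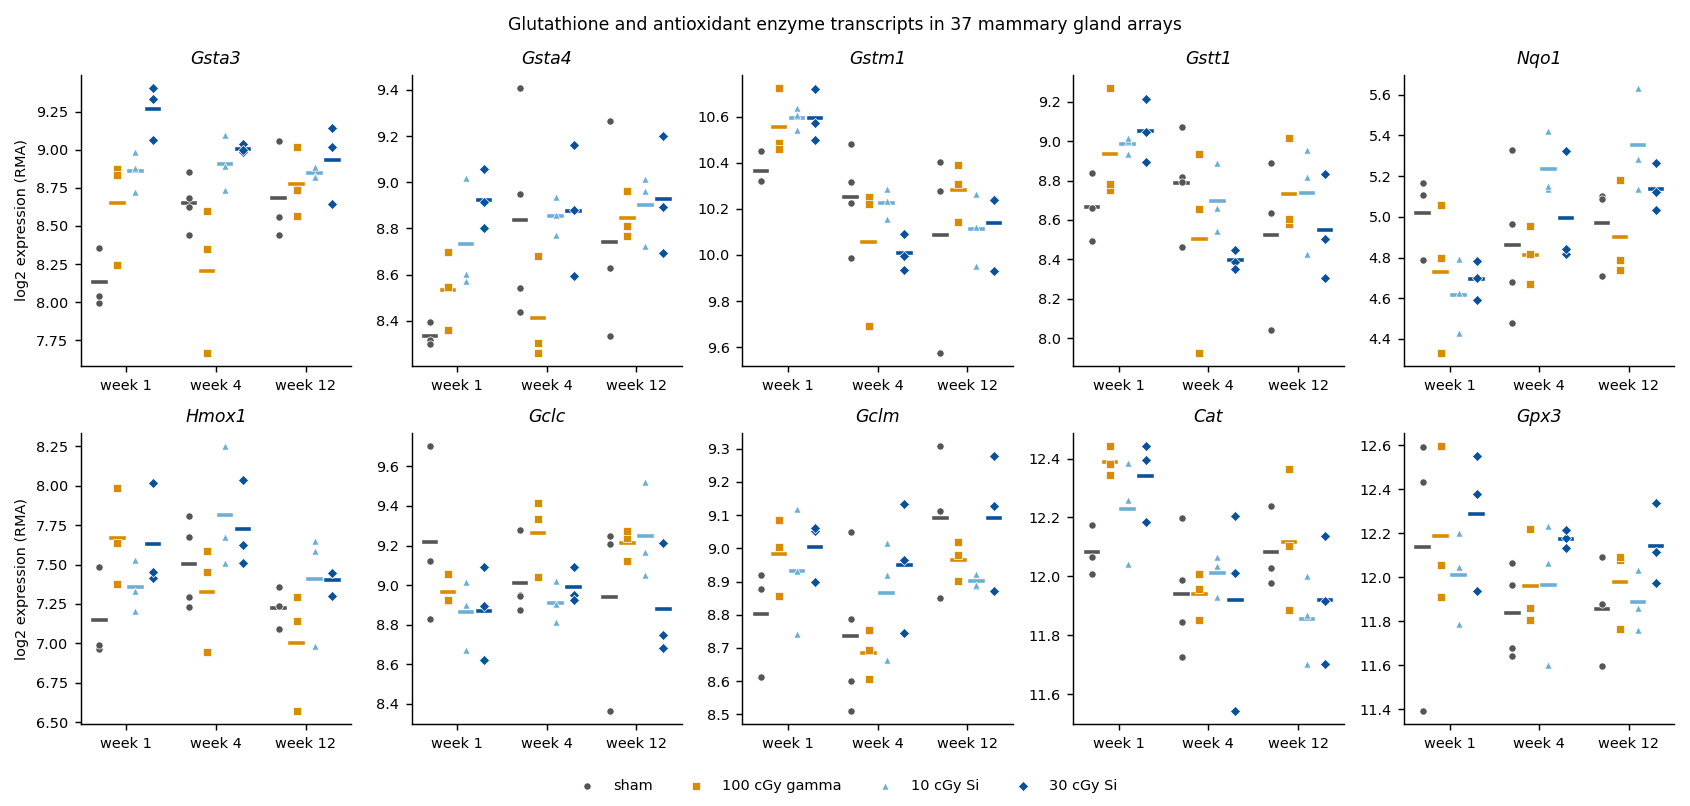
Log2 expression of each member in every array (points) with the group mean (bar), by week after exposure and treatment; each panel has its own scale. Gsta3 at week 1 goes from 8.0 to 8.35 in sham to 9.07 to 9.41 after 30 cGy Si. Averaged over the 4 treatments, Gstm1, Gstt1 and Cat lie higher at week 1 than later. In sham alone, Gstt1 averages 8.66 at week 1 and 8.79 at week 4, and Cat 12.08 at both week 1 and week 12.

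Gsta4, the transferase of lipid peroxidation products, had its lowest group mean in sham of week 1, like Gsta3. The sham arrays read 8.39, 8.31 and 8.30, those of gamma 8.54, 8.36 and 8.70, those of 10 cGy Si 8.57, 9.02 and 8.60, and those of 30 cGy Si 8.91, 9.06 and 8.80. Both silicon groups lay above every sham array and the gamma group overlapped sham. The difference was 0.59 ± 0.21 after 30 cGy Si (adjusted p 0.321), 0.39 ± 0.21 after 10 cGy Si (adjusted p 0.936) and 0.20 ± 0.21 after gamma (adjusted p 0.852), and none of the values passed. With arrays weighted by their quality, Gsta4 was called after 30 cGy Si at week 1, at 0.58 ± 0.16 (adjusted p 0.0417), in a fit that called 410 of the 13174 genes in place of 3. At week 4 the groups spread widely: sham ran from 8.44 to 9.41, and gamma read 8.68, 8.26 and 8.30, a difference of -0.42 ± 0.19 (adjusted p 0.798).

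Gstm1, of the mu class, lay higher in every irradiated group of week 1 than in sham, without passing. Sham read 10.32, 10.45 and 10.32, gamma 10.49, 10.46 and 10.72, 10 cGy Si 10.54, 10.64 and 10.60, and 30 cGy Si 10.72, 10.50 and 10.57. No irradiated array overlapped the sham arrays in these 3 comparisons. The differences were nonetheless small, 0.19, 0.23 and 0.23 in that order with an SE of 0.16, and their adjusted p values were 0.813, 0.970 and 0.549. Gstt1, of the theta class, read 8.66, 8.49 and 8.84 in sham at week 1 and 9.05, 9.21 and 8.89 after 30 cGy Si, a difference of 0.39 ± 0.22 (adjusted p 0.462). At week 4 the direction was the opposite: 30 cGy Si read 8.45, 8.39 and 8.35, below every one of the sham arrays, which ran from 8.46 to 9.07, at -0.39 ± 0.20 (adjusted p 0.625).

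Of the glutamate-cysteine ligase subunits, neither passed in any comparison with sham. Gclc, the catalytic subunit, read 9.12, 9.70 and 8.83 in sham at week 1, a wide spread that reached the highest value of the 37 arrays in replicate 2. It read 8.62, 8.89 and 9.09 after 30 cGy Si, 8.67, 8.90 and 9.02 after 10 cGy Si and 8.92, 8.92 and 9.05 after gamma, and all 3 groups overlapped sham. Differences were -0.35 ± 0.20 (adjusted p 0.473), -0.36 ± 0.20 (0.959) and -0.25 ± 0.20 (0.807). Without sham week 1 replicate 2 they were -0.11, -0.11 and -0.01, each ± 0.20. Gclm, the modifier subunit, had the narrowest range of the 10 members, from 8.51 to 9.31, and differed from sham by 0.20 ± 0.14 (adjusted p 0.547), 0.13 ± 0.14 (0.995) and 0.18 ± 0.14 (0.807) in the same order. The estimates of the subunits thus had opposite signs at week 1, with intervals that include 0, and those of Gclc rested largely on 1 sham array.

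Catalase transcript (Cat) read 12.18, 12.07 and 12.01 in sham at week 1, 12.38, 12.44 and 12.34 after gamma and 12.39, 12.44 and 12.18 after 30 cGy Si. Both groups lay above every sham array. The differences were 0.30 ± 0.15 (adjusted p 0.626) and 0.26 ± 0.15 (adjusted p 0.471), and that of 10 cGy Si, which overlapped sham, was 0.14 ± 0.15 (adjusted p 0.995). Gpx3, the secreted peroxidase, spread most within sham of week 1, from 11.39 in replicate 3 to 12.59, and at week 1 the differences from sham were 0.05 after gamma, 0.15 after 30 cGy Si and -0.13 after 10 cGy Si, each with an SE of 0.23. Without sham week 1 replicate 3 they were -0.33, -0.22 and -0.50, each ± 0.21, and none passed. At week 4 it read 12.18, 12.13 and 12.21 after 30 cGy Si, above all sham arrays, which ran from 11.64 to 12.06, at 0.34 ± 0.22 (adjusted p 0.688).

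Nqo1, the quinone reductase that is often used as a readout of NRF2, lay on the low side of sham after every irradiation at week 1. Sham read 5.17, 5.11 and 4.79, 30 cGy Si 4.70, 4.79 and 4.59, 10 cGy Si 4.79, 4.43 and 4.63, and gamma 5.06, 4.33 and 4.80. Only the arrays of 30 cGy Si lay wholly below sham, and narrowly. Differences were -0.33 ± 0.19 (adjusted p 0.488), -0.41 ± 0.19 (0.899) and -0.29 ± 0.19 (0.770). At week 12, Nqo1 read 5.63, 5.29 and 5.14 after 10 cGy Si against 4.71, 5.10 and 5.09 in sham, a higher value at 0.39 ± 0.19 (adjusted p 1.00). The effect of 10 cGy Si on Nqo1 was 0.79 ± 0.23 higher in the later weeks than at week 1, which ranked the gene 39 of 13174 by p and did not pass (adjusted p 0.757). With a mean of 4.94, the Nqo1 probe set lay near the filter at 4.04.

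Hmox1, the haem oxygenase, read 7.48, 6.97 and 6.99 in sham at week 1, 7.38, 7.98 and 7.64 after gamma, 7.41, 7.45 and 8.02 after 30 cGy Si, and 7.53, 7.21 and 7.33 after 10 cGy Si. Sham replicate 1 kept all 3 groups overlapping. Differences were 0.52 ± 0.23 after gamma (adjusted p 0.592), 0.48 ± 0.23 after 30 cGy Si (0.409) and 0.21 ± 0.23 after 10 cGy Si (0.996). The macrophage score ran from -0.56 to -0.18 in sham, from -0.22 to 0.42 after gamma and from -0.16 to 0.09 after 30 cGy Si. After 10 cGy Si it ran from -0.43 to 0.08, and the ranges of gamma and 10 cGy Si overlapped sham. Both after gamma and after 30 cGy Si, 12 of the 14 macrophage genes were higher than in sham, with 0 of them called. Their part in the Hmox1 values was not tested.

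**Figure D2:**
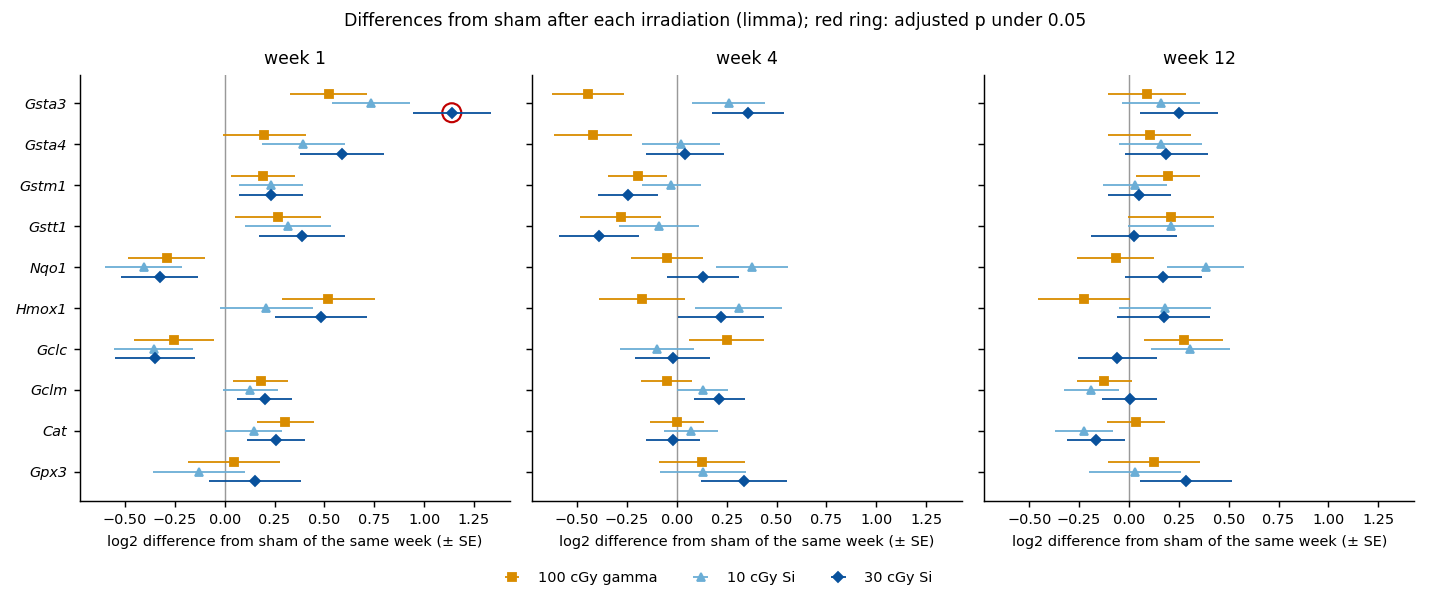
Log2 difference of each member from sham of the same week (points, ± SE from limma) for the 3 irradiations at weeks 1, 4 and 12; a red ring marks an adjusted p under 0.05. The ring stands at Gsta3 after 30 cGy Si at week 1, 1.14 ± 0.19, and no other value carries one.

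Counted over the members, the groups of week 1 did not overlap for 5 members higher (Gsta3, Gsta4, Gstm1, Gstt1 and Cat) and 1 lower (Nqo1) after 30 cGy Si, against 14.5% and 6.13% of all genes. They did not overlap for 4 higher and 0 lower after 10 cGy Si (7.92% and 3.86% of all genes) and for 2 higher and 0 lower after gamma (8.77% and 5.52%). These 3 comparisons share their sham arrays, so their counts are not independent. The median difference of the 10 members was 0.24 after 30 cGy Si, 0.18 after 10 cGy Si and 0.20 after gamma at week 1, beside medians over all genes of 0.03, 0.01 and 0.01. At unadjusted p under 0.05, limma gave 3, 2 and 3 members in that order, where 12%, 5.4% and 7.82% of all genes passed.

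At week 4 limma called 0 members and 0 of all genes after gamma, 30 cGy Si or 10 cGy Si. At unadjusted p under 0.05 there were 2, 0 and 1 members in that order (Gsta3 and Gsta4 lower after gamma, Nqo1 higher after 10 cGy Si), beside 5.56%, 8.08% and 3.17% of genes. After 30 cGy Si at week 4 the arrays did not overlap sham for Gsta3 and Gpx3, higher, and Gstt1, lower, beside 6.19% and 1.81% of genes. At week 12 limma again called 0 members and 0 of all genes, and 0 members had an unadjusted p under 0.05, beside 2.82%, 5.28% and 4.7% of genes in the same order. Nqo1 after 10 cGy Si was the single member whose arrays did not overlap sham at week 12, beside 5% of genes on the higher side.

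Cell marker scores of sham and 30 cGy Si at week 1 were set side by side, without a test of the scores. Of those given here, the white adipocyte, brown adipocyte and endothelial scores did not overlap, nor did the macrophage score given above with Hmox1. The luminal, lymphocyte and skeletal muscle scores overlapped. At week 1 the white adipocyte score ran from 0.04 to 0.14 in sham and from 0.19 to 0.27 after 30 cGy Si, with 9 of 11 genes higher and 0 called. The brown adipocyte score ran from -0.42 to -0.13 in sham and from -0.10 to 0.09 after 30 cGy Si, with 5 of 6 genes higher and 0 called, and Ucp1 under the filter. The luminal score ran from -0.86 to 0.52 in sham and from -0.36 to -0.21 after 30 cGy Si, with 2 of 16 genes higher. The lymphocyte score ran from -0.73 to 2.71 in sham and from -1.41 to -0.60 after 30 cGy Si, with 0 of 17 genes higher and 0 called. The endothelial score ran from 0.04 to 0.16 in sham and from 0.20 to 0.32 after 30 cGy Si, with 7 of 10 genes higher and 0 called. The skeletal muscle score ran from -0.57 to 2.0 in sham and from -1.71 to 0.69 after 30 cGy Si, with 3 of 15 genes higher and a median difference of -1.22. The scores of white adipocytes and macrophages entered the Gsta3 result only in the fit with 6 covariates, and the endothelial score in none, so its part was not tested.

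The kinds of radiation were also set against each other, at the doses given, which differ. Gsta3 was 0.62 ± 0.19 higher after 30 cGy Si than after 100 cGy gamma at week 1 (adjusted p 0.999; 95% interval 0.22 to 1.02), with no overlap of arrays. Gsta3 and Gsta4 were the members whose arrays did not overlap there, both higher after silicon, beside 9.37% of genes. Over the 3 weeks it was 0.53 ± 0.11 higher (adjusted p 0.0746), which did not pass. It passed with array weights (0.48 ± 0.10, adjusted p 0.0154), which called 254 genes in place of 1, and without gamma week 4 replicate 1 (0.59 ± 0.11, adjusted p 0.0458). Gsta4 showed the next largest difference between 30 cGy Si and gamma over 3 weeks, 0.31 ± 0.12 (adjusted p 0.277). Between 30 and 10 cGy Si at week 1, Gsta3 differed by 0.40 ± 0.19 (adjusted p 0.766; 95% interval 0.01 to 0.80), again with no overlap, as for 10.5% of genes, and for the other members the interval included 0. Between 10 cGy Si and gamma, Gsta3 differed by 0.21 ± 0.19 at week 1 (adjusted p 1.00) and by 0.33 ± 0.11 over 3 weeks (adjusted p 1.00). Limma called no member in any of these comparisons, in which it called 0.00759% of genes between 30 cGy Si and gamma over 3 weeks, 0.0531% and 0.0228% between the silicon doses at week 1 and over 3 weeks, and 0 otherwise.

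Over the 4 treatments together, Gstm1, Gstt1 and Cat fell between week 1 and week 4, and the same 3 genes were lower at week 12 than at week 1, when Nqo1 had risen. Gstm1 ran from 10.32 to 10.72 in the 12 arrays of week 1 and from 9.69 to 10.48 in the 13 of week 4, a difference of -0.39 ± 0.08 (0.76-fold; adjusted p 0.000421). Cat ran from 12.01 to 12.44 at week 1 and from 11.54 to 12.21 at week 4, a difference of -0.31 ± 0.07 (adjusted p 0.00184). Gstt1 differed by -0.31 ± 0.11 (adjusted p 0.0293). The ranges of the weeks overlapped for all 3 genes, and the single highest array of each belonged to week 1. For Gstt1, sham week 4 replicate 1 read 9.07, above the week 1 median of 8.91.

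At week 12 the differences from week 1 were -0.37 ± 0.08 for Gstm1 (adjusted p 0.000548), -0.27 ± 0.07 for Cat (0.00501) and -0.27 ± 0.11 for Gstt1 (0.0478). Nqo1 was 0.33 ± 0.10 higher (1.25-fold; adjusted p 0.00927). The calls of Gstm1, Cat and Nqo1 at week 12 held in all 24 fits that left out 1 array, and that of Gstt1 in 9. With 4 tissue covariates the calls of Nqo1 (0.24 ± 0.12, adjusted p 0.135) and Gstt1 (-0.20 ± 0.12, adjusted p 0.237) at week 12 were lost, as was that of Gstt1 at week 4 (-0.26 ± 0.11, adjusted p 0.0953). Called members, 3 of 10 at week 4 and 4 of 10 at week 12, stood against a background of 25.8% and 35.5% of all genes, so the members were called about as often as genes at large. In sham arrays alone no member was called between week 1 and week 4 or week 12: for Gstm1 the sham differences were -0.11 ± 0.15 and -0.28 ± 0.16, and for Cat -0.14 ± 0.14 and 0.00 ± 0.15. For Gstt1 they were 0.12 ± 0.20 and -0.14 ± 0.22, and for Nqo1 -0.16 ± 0.18 and -0.05 ± 0.19. Sham Gstt1 at week 4 and sham Nqo1 at week 12 thus lay on the other side of week 1 from the mean over the 4 treatments.

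White adipocyte markers fell over the same interval. Of 11 tested, 10 were lower at week 4 than at week 1 and 7 of these were called, and at week 12 again 10 were lower and 5 called. Adding white adipocyte and macrophage scores to the other 4 covariates, a setting chosen after the data had been seen, left 0 members called between weeks, with Gstm1 at -0.22 ± 0.13 and Cat at 0.07 ± 0.12 for week 4. Between weeks 4 and 12 no member was called, against 1.64% of all genes (2 members at unadjusted p under 0.05, beside 15.9% of genes). These were Gclm, 0.20 ± 0.07 higher at week 12 (adjusted p 0.126), and Hmox1, at -0.33 ± 0.11 (adjusted p 0.139). Gclm was called there without sham week 4 replicate 1, at 0.23 ± 0.06 (adjusted p 0.0362).

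The wider pathway was followed through 6 lists with 142 genes, of which 127 were on the arrays and 117 passed the filter. In the 15 comparisons with sham and in the 6 between radiations, limma called 0 of the 117. At week 1 and unadjusted p under 0.05 there were 26 higher and 3 lower after 30 cGy Si, beside 8.5% and 3.54% of all genes. There were 8 higher and 1 lower after gamma (4.78% and 3.04% of all genes) and 5 higher and 1 lower after 10 cGy Si (3.58% and 1.83%). After 30 cGy Si at week 1, 16 of 19 other glutathione transferases lay above 0 with a median of 0.24, and 21 of 26 further NRF2 targets with a median of 0.32, beside 55.2% of all genes and a median of 0.03. Ltc4s, the leukotriene C4 synthase, read 0.68 ± 0.24 (adjusted p 0.303), and Aldh1a1, a retinaldehyde dehydrogenase, 0.94 ± 0.26 (adjusted p 0.261). Me1, the malic enzyme that makes NADPH and is abundant in fat, read 0.95 ± 0.51 (adjusted p 0.456). Superoxide dismutases, peroxidases and thioredoxin enzymes had a median of 0.16, with Sod3, the extracellular superoxide dismutase, at 0.45 ± 0.24 (adjusted p 0.444). Glutathione synthesis and recycling had a median of 0.18, and the oxidant-producing enzymes 0.17, with Nos2 at 0.57 ± 0.22 (adjusted p 0.344).

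The NRF2 regulators had a median of -0.02 in the same comparison, and 6 of 14 lay above 0. Nfe2l2, which encodes NRF2 itself, read 0.22 ± 0.10 after 30 cGy Si (adjusted p 0.399) and 0.36 ± 0.10 after gamma (adjusted p 0.332), neither of which passed. Bach2, a repressor with a known role in B and T cells, read -1.01 ± 0.42 (adjusted p 0.371), where all 17 lymphocyte markers were lower too. For 10 cGy Si and gamma at week 1, the further NRF2 targets had medians of 0.14 each, with 18 and 20 of 26 above 0, beside 52.2% and 51.9% of all genes.

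Between weeks, over the 4 treatments together, 28 of the 117 pathway genes were called at week 4 against week 1 (13 higher, 15 lower; 23.9%) and 49 at week 12 against week 1 (24 higher, 25 lower; 41.9%), beside the 25.8% and 35.5% of all genes. In sham arrays alone, 3 were called higher and 0 lower at week 4 (2.56%), beside 5.88% of all genes. At week 12, 4 were called higher and 0 lower in sham (3.42%), beside 5.12% of all genes. Over the 4 treatments, the genes that fell with Gstm1 and Cat included Sod3, at -0.80 ± 0.12 (adjusted p 8.56e-06) by week 4, and Gstm3, another mu class transferase, at -0.43 ± 0.09. Msrb3, a methionine sulfoxide reductase, fell by 0.43 and Mafk, a small MAF partner of NRF2, by 0.38 over the same interval. Glrx2, the mitochondrial glutaredoxin, rose by 0.30 ± 0.04, and Hagh, a glyoxalase that releases glutathione, by 0.30 ± 0.07. Prdx4, a peroxiredoxin of the secretory pathway, rose by 0.35 ± 0.10 (adjusted p 0.0107). By week 12, Nfe2l2 was 0.15 ± 0.05 lower (adjusted p 0.0197) and Gsr, glutathione reductase, 0.19 ± 0.06 higher (adjusted p 0.0150) than at week 1.

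Several members rose and fell with cell markers from array to array. Over the 37 arrays, 145 relations were computed, 45 between members and 100 between a member and a marker score, and permutation p values were adjusted over them. Gsta4 rose with the brown adipocyte score (r 0.811, rho 0.813; permutation p 1e-05, the smallest 100000 permutations allow, adjusted 0.000161). Leaving out the 2 arrays farthest from the median score gave r 0.765, and r was 0.796 within week 1 and 0.813 in the later weeks. Of that list, Ucp1, Zic1 and Elovl3 averaged 3.38, 2.66 and 3.48, under the filter, and Cox8b, a mitochondrial subunit that brown fat shares with muscle, 9.00. After group means were taken out of both, Gsta4 rose with the white adipocyte score as well (r 0.886, rho 0.870; permutation p 1e-05, adjusted 0.00145; without 2 arrays 0.838).

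Gstm1, Gstt1 and Cat, which fell after week 1 in the mean over the 4 treatments, rose with the white adipocyte score over the 37 arrays. Their r values were 0.786, 0.758 and 0.794 and their rho values 0.795, 0.733 and 0.769, each with a permutation p of 1e-05 (adjusted 0.000161). Permutations shuffled all 37 arrays regardless of group, so a shift between weeks shared by gene and score counts towards these p values. Without 2 arrays r was 0.761, 0.749 and 0.745. Within week 1 it was 0.548, 0.588 and 0.811, and in weeks 4 and 12 it was 0.619, 0.709 and 0.624. Gstt1 went against the luminal score (r -0.695, rho -0.720; permutation p 1e-05, adjusted 0.000161; without 2 arrays -0.701; week 1 -0.667, later weeks -0.626).

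Hmox1 rose with the macrophage score (r 0.714, rho 0.659; permutation p 1e-05, adjusted 0.000161; without 2 arrays 0.612), within week 1 (r 0.749) and in the later weeks (r 0.786). The relation held after group means were taken out (r 0.719, rho 0.705; permutation p 9e-05, adjusted 0.00435). Gclc rose with the luminal score over all arrays (r 0.563, rho 0.563; permutation p 0.0003, adjusted 0.00311; without 2 arrays 0.556; week 1 0.682, later weeks 0.491). Gpx3 did so after group means were taken out (r 0.728, rho 0.703; permutation p 0.00066, adjusted 0.0137; without 2 arrays 0.622). On that scale Gsta3 went against the luminal score (r -0.623, rho -0.633; permutation p 0.00314, adjusted 0.0379; without 2 arrays -0.571). Of all relations between a member and a score, 12 positive and 7 negative passed at adjusted p under 0.05 over the 37 arrays. After group means were taken out, 7 positive and 3 negative passed. Among those named here, fat markers rose with Gsta4, Gstm1, Gstt1 and Cat, and macrophage markers with Hmox1. Luminal markers rose with Gclc over all arrays and with Gpx3 after group means were taken out. They went against Gstt1 over all arrays and against Gsta3 after group means were taken out. All these points share the arrays and their normalisation.

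**Figure D3:**
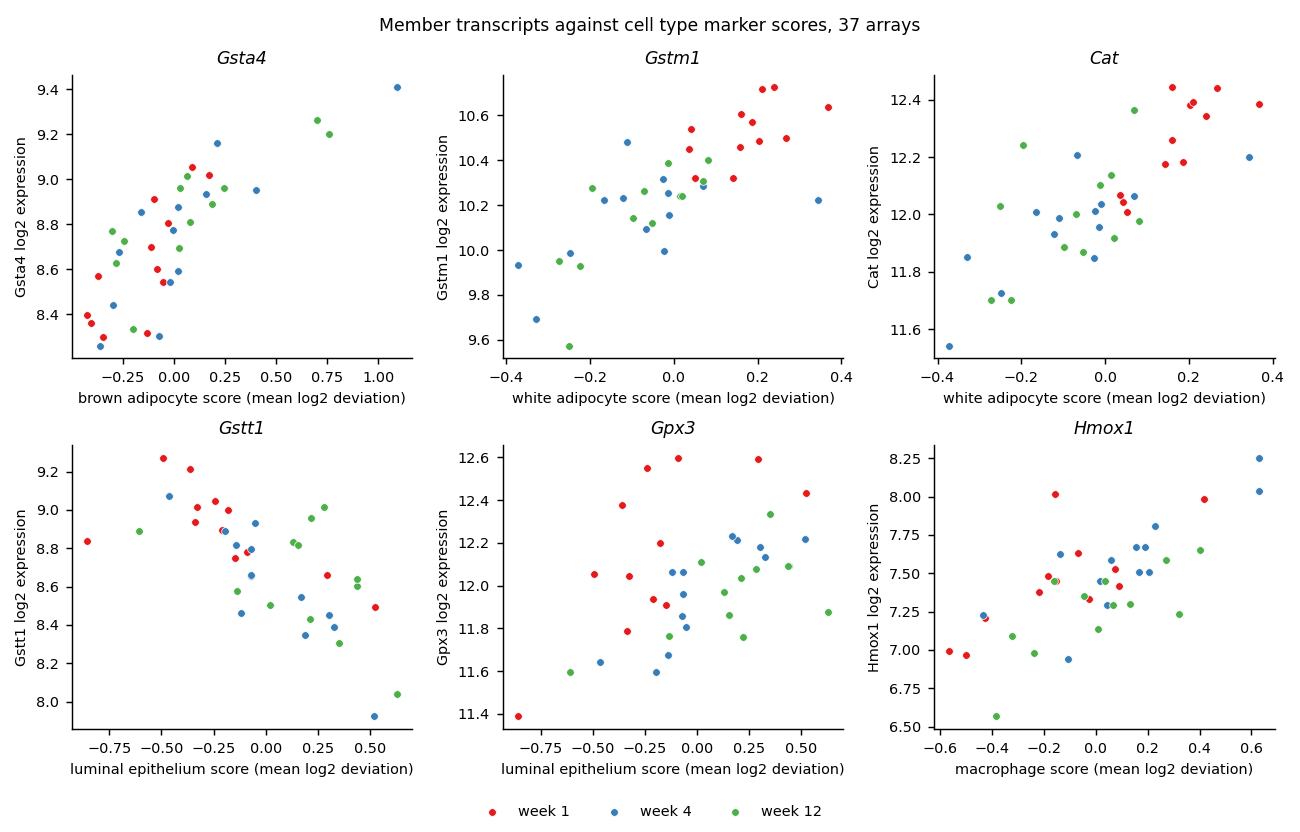
Log2 expression of 5 members against the score of a marker list (mean log2 deviation of its genes) and of Gstt1 against the luminal score, 1 point per array, coloured by week. Gsta4 climbs with the brown adipocyte score (r 0.811) and Hmox1 with the macrophage score (r 0.714), while Gstt1 declines with the luminal score (r -0.695).

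Among the members themselves, 8 of 45 pairs passed at adjusted p under 0.05 over the 37 arrays, 6 positive and 2 negative. The closest pair was Gstm1 and Gstt1 (r 0.826, rho 0.727; permutation p 1e-05, adjusted 0.000161; without 2 arrays 0.740; week 1 0.681, later weeks 0.823). Gsta3 and Gsta4 rose together (r 0.679, rho 0.682; permutation p 1e-05; adjusted 0.000161; without 2 arrays 0.628; week 1 0.804, later weeks 0.667), and Gstm1 with Cat (r 0.666, rho 0.683; permutation p 1e-05, adjusted 0.000161; without 2 arrays 0.744; week 1 0.473, later weeks 0.420). Gsta3 and Gclc went in opposite directions (r -0.548, rho -0.511; permutation p 0.0005, adjusted 0.00427; without 2 arrays -0.522; week 1 -0.593, later weeks -0.542), as did Nqo1 and Cat (r -0.572, rho -0.569; permutation p 0.00027, adjusted 0.00301; without 2 arrays -0.517; week 1 -0.413, later weeks -0.447). With group means taken out, 2 pairs passed: Gstm1 with Gstt1 (r 0.755, adjusted p 0.0251) and Hmox1 against Cat (r -0.529, adjusted p 0.0327; both by permutation). Gclc and Gclm, whose products form 1 enzyme, did not pass on either scale.

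**Figure D4:**
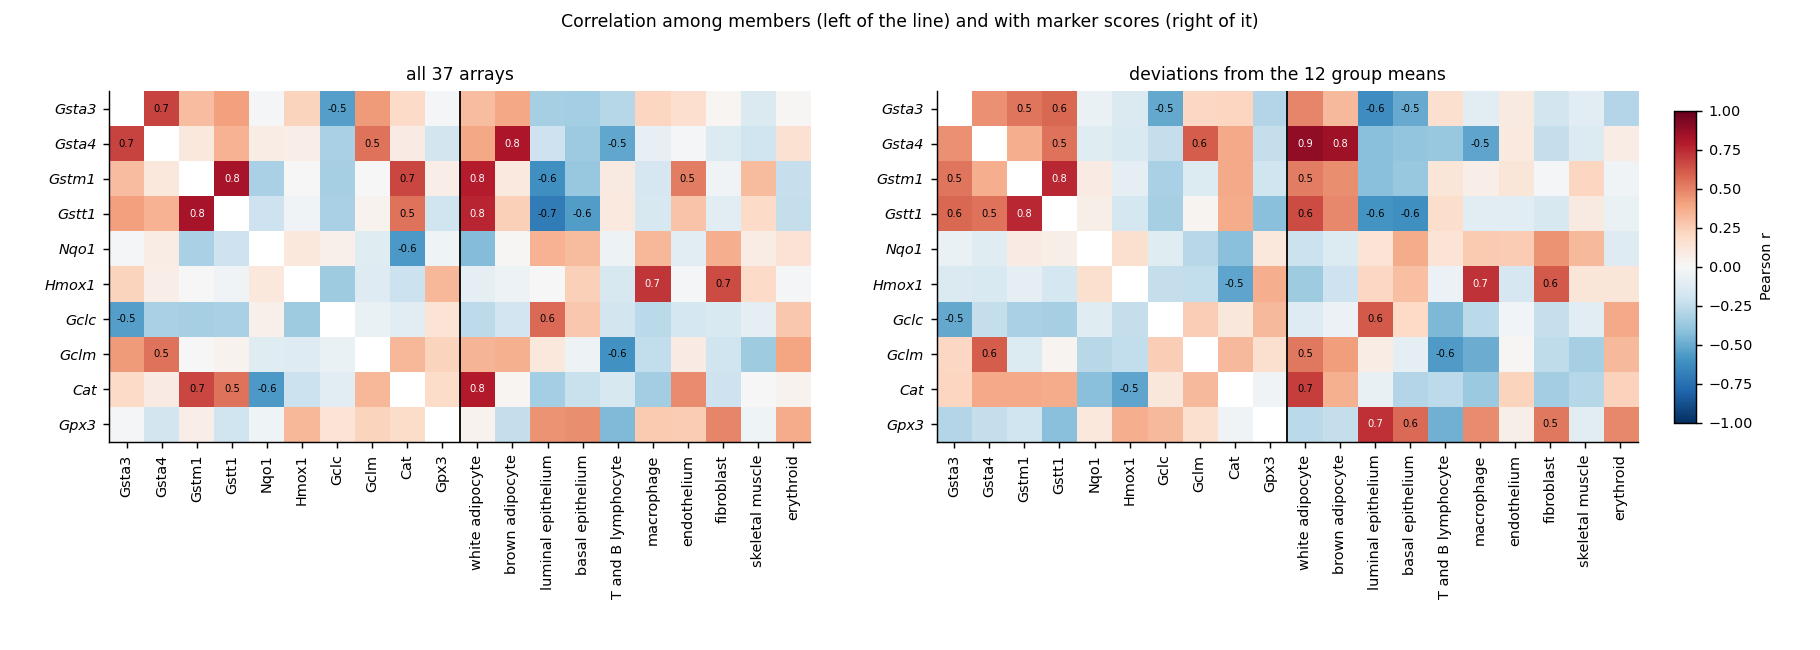
Pearson r among the 10 members and between each member and 10 marker scores, over the 37 arrays (left) and over deviations from the 12 group means (right); values of 0.5 or more in size are printed in the cell. The strongest cells are Gstm1 with Gstt1 (0.826) on the left and Gsta4 with white adipocyte markers (0.886) on the right.

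The genes most like each member over the 37 arrays, with members and predicted genes left out, are given as a description. Gsta4 was most like Clybl (r 0.915) and Mmut (r 0.899), both of which encode mitochondrial enzymes. Gstm1 was most like Sod3 (r 0.904) and Gstm3 (r 0.903), and Cat most like Mocs1 (r 0.894). Hmox1 was most like Alox5 (r 0.834), the arachidonate lipoxygenase of leukocytes, and Gclc most like Prss8 (r 0.739), an epithelial protease. Gpx3 was most like Prom2 (r 0.821), an epithelial membrane protein, and Gclm most like Cdo1 (r 0.768), the cysteine dioxygenase. Gsta3 was most like Pde8a (r 0.774) and Nqo1 most like Myd88 (r 0.660).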

How the data were processed

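The authors deposited log2 expression values, 1 per probe set and array, made by RMA (a background, normalization and summary method) in oligo according to the submitters' processing notes (versions not given in the sources used here). Of 35556 probe sets, 21218 had a single symbol in the platform annotation. A gene was read from its probe set of highest mean, and genes above the 30th percentile (log2 4.04) were tested. The number of arrays limits the precision.

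A limma model (3.58.1, R 4.3.3) with 12 group means was fitted to the 37 arrays (25 residual and 3.4 prior degrees of freedom). P values are two-sided and were adjusted by Benjamini-Hochberg over 13174 genes within each contrast; "called" means adjusted p under 0.05. Gene-wise adjusted p values in the text are limma's. Correlations used 100000 permutations, which shuffled the 37 arrays freely, or within the 12 groups where group means were taken out. Named were the 10 members, and a choice of pathway genes and of the 3 genes most like each member, which is not a full list. A value that changed sign under an alternative is given as reversed where it had been called or had an unadjusted p under 0.05. Members, lists and tests were chosen with earlier results of these data known. The limma script was tested on simulated arrays.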

Additional observations from a re-analysis of the deposited data

Results flagged for a closer look

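At week 4, all 3 arrays of 30 cGy Si read above the mean of sham for Gsta3 and all 3 of 100 cGy gamma below it, with differences from sham of 0.357 and -0.446, so the groups moved apart by 0.803. The 3 arrays of 10 cGy Si also lay above the sham mean, by 0.259 on average, 0.705 from gamma. Direct limma contrasts, added after these values were seen, gave 0.80 ± 0.19 for 30 cGy Si against gamma (adjusted p 0.343; 1 gene called, 1053 of 13174 at unadjusted p under 0.05) and 0.71 ± 0.19 for 10 cGy Si against gamma (adjusted p 0.851; 0 genes called, 727 at unadjusted p under 0.05). Neither passed. Gamma replicate 2, at 7.67, was the lowest of the 37 arrays for Gsta3.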

How the results depend on the processing

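The filter (none, or at the 50th percentile), the probe set summary, quantile normalization, limma's trend and robust options, array weights, a replicate block, a fit to the compared groups alone, 4 tissue covariates, removal of both arrays least like the others and of each array in turn, and 6 covariates (chosen after seeing the data) were varied. In most comparisons 0 members were called, and a 0 that stayed 0 was taken as unchanged, which says little about how calls held. On that rule the number of members called stayed within 1.5 times in 417 of 448 fits that left out 1 array and in 328 of 352 others. For 30 cGy Si at week 1 (1 called, Gsta3) it was 2 with array weights (Gsta3 and Gsta4) and 0 with only the groups compared, 4 covariates or 6 covariates, and 0 to 1 with an array left out. For 30 cGy Si over 3 weeks (1 called) it was 2 with array weights, 0 with no filter, the replicate block, only the groups compared or 6 covariates, and 0 to 1 with an array left out. For any irradiation at week 1 (1 called) it was 0 with no filter, the replicate block, only the groups compared, 4 or 6 covariates or without both arrays, and 0 to 1 with an array left out. Counts of 0 became 1 with array weights for 10 cGy Si at week 1, 30 cGy Si against gamma over 3 weeks, sham week 4 against week 1, week 12 against week 4 and the test of 9 effects, and 1 without both arrays for week 12 against week 4. With an array left out, counts ran from 0 to 1 for 30 cGy Si against gamma over 3 weeks, sham week 4 against week 1 and week 12 against week 4. For week 4 against week 1 (3 called) the count was 5 with array weights and 0 with 6 covariates, and for week 12 against week 1 (4 called) 0 with 6 covariates. Under 6 covariates, 4 differences reversed: Gstt1 to 0.127 and Cat to 0.0708 at week 4, and Gstt1 to 0.286 and Cat to 0.108 at week 12, against week 1. The cause of these changes was not tested. Pairing by replicate number was looked for as an r over 0.1 in all 3 same-numbered pairs, a rule that cannot show its absence with so few pairs. The rule was not met in 8 of 9 comparisons with sham (27 same-numbered pairs, r from -0.403 to 0.652, 12 over 0.1). In the other, 10 cGy Si at week 4, all 3 pairs were over 0.1 (r 0.140, 0.432 and 0.577), and 0 members were called with or without the block. With the replicate block, Gsta3 read 0.559 for 30 cGy Si over 3 weeks (adjusted p 0.0902) and 0.798 for any irradiation at week 1 (adjusted p 0.0532), and Gstt1 read -0.286 at week 4 against week 1 (adjusted p 0.0532).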
